A study of Drosophila melanogaster with 4 samples.

Results

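The measured genes were the chitinases, mucins and peritrophins of Drosophila melanogaster, which build, line and take apart the chitin matrices of the fly. Members were the genes whose name in the array annotation begins with Cht, Idgf, Mur, Muc, obst- or Peritrophin, together with Gasp, kkv, serp and verm. Of 10843 genes that a probe set named alone, 42 fell under this rule, with 51 probe sets. For the 6 genes with several probe sets the one with the highest mean over all arrays was used. RefSeq (Release 6 plus ISO1 MT, used for names only) holds 50 genes with such names, and 8 of them (Cht12, Muc14A, Muc30E, Muc68E, Muc96D, Mur11Da, Mur29B and obst-I) were not analysed here.

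Transcript levels were taken from whole adult y, w females, a strain with yellow body and white eyes, that had lived without yeast for the 5 days since eclosion. Each fly of the treated group received 0.1 µl of acetone carrying 187 mM juvenile hormone III (JH III), or 18.7 nmol, on its surface, and each control fly 0.1 µl of acetone, and all were frozen after 12 hours. Both groups shared the strain, the diet, the ice anaesthesia and the acetone, so that the comparison is of JH III in acetone with acetone alone. There were 2 pools of 30 females per treatment, each on 1 Affymetrix DrosGenome1 array, and this number of arrays limits the precision of every value.

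Chitin is a polymer of N-acetylglucosamine that stiffens the cuticle and the tracheal tubes and, in the gut, forms the peritrophic matrix, the porous sleeve that separates food from the midgut cells. Chitin synthases make the polymer, deacetylases and chitin-binding proteins arrange it, and chitinases cut it. The imaginal disc growth factors (Idgf) descend from chitinases, have lost the catalytic activity and are secreted into the blood. Mucins are long secreted or membrane proteins heavily coated with O-linked sugars, and those of the gut lie on or in the peritrophic matrix. Juvenile hormone is best known for keeping larval character at the moult and for driving egg maturation in the adult.

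Of the 34 members that could be tested 1 fell, the mucin-related gene Mur18B, and 0 rose (limma over all 10475 probe sets tested, Benjamini-Hochberg adjusted p under 0.05). Over all tested probe sets 0.162% passed in either direction. The other 8 of the 42, described with their families, lay in the lowest 25% of mean signal and had no test. At an unadjusted limma p under 0.05 stood 4 members, all lower (Mur18B, Idgf2, Idgf4 and Muc68D), where 7.29% of all probe sets tested stood and 3.75% were lower. In 9 of the 34 both JH III arrays lay below both acetone arrays, and 15.3% of tested probe sets did so. In 1 of the 34, Cht5, both lay above, and 22.2% of tested probe sets did so. The median difference over the 42 members was -0.02 on the log2 scale, with 21 below 0 and 21 above, and 26 were below 0 after median centring, 24 after quantile normalization and 26 without JH III replicate 1. The median over all probe sets was 0.13, and 43.9% of those tested were below 0. Differences here are log2(signal + 83) in JH III minus acetone, which understates changes of low signals.

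The members were not alike across signal strength. Of the 14 tested members with a mean signal over 500, a limit chosen after the values were seen, 10 had a difference below 0 (55.9% of the probe sets tested above that limit). In 6 the groups did not overlap and JH III was lower (22% of those probe sets). Their median difference was -0.40, against -0.08 over the 3979 tested probe sets of the same kind. The 20 tested members with a lower mean signal had a median of 0.42, against 0.26 over the 6496 tested probe sets of that kind. The plot of difference against mean signal shows both parts.

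**Figure D1:**
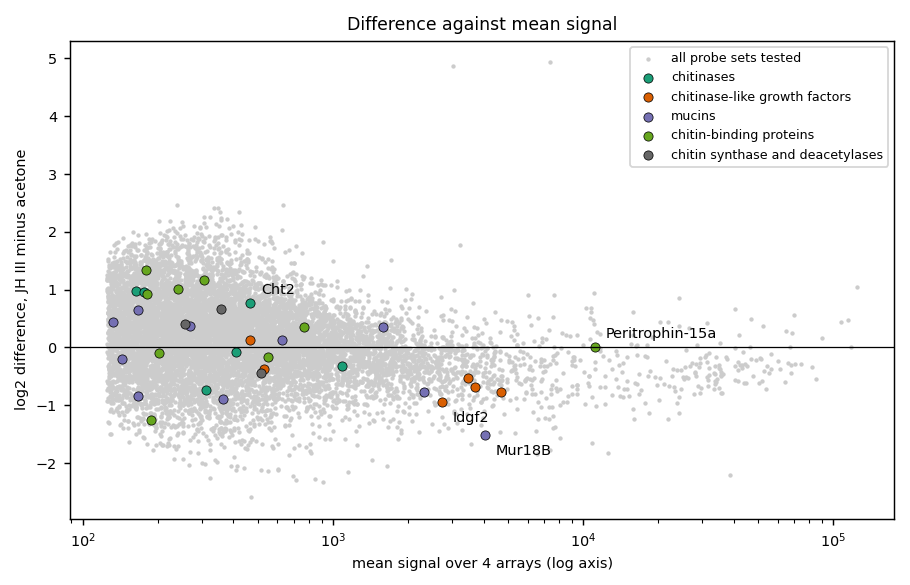
Log2 difference between JH III and acetone (vertical axis) against the mean signal over 4 arrays (horizontal log axis) for the 10475 probe sets tested (grey) and the 34 tested members (coloured by family). Mur18B lies lowest among the members at -1.52, and Peritrophin-15a lies at 0.01.

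The arrays differed in ways that bear on these values, given here once. JH III replicate 1 had the strongest signal from the 9 hybridisation controls, bacterial and phage targets added in known amount, with a geometric mean of 54170, and acetone replicate 1 had the weakest, 7794. The other arrays had 22915 (JH III) and 20718 (acetone). For the control gene GAPDH the 3' signal was 2.32 and 5.75 times the 5' signal with JH III, and 15.5 and 10.2 times in acetone. This ratio depends on how much of each transcript was intact and copied. For the control gene eIF4a it was 18.3 and 18.9 with JH III and 75.0 and 46.8 in acetone. For actin it was 3.40 and 16.7 with JH III and 35.6 and 14.2 in acetone, so that the groups overlapped. Acetone replicate 1 came from a chip lot of its own. An array's control level, the 95th percentile of 23 control probe sets for transcripts that flies lack, was 369 and 240 with JH III and 139 and 295 with acetone alone. Of the members 13 exceeded it on all 4 arrays, 20 on some and 9 on none.

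Mur18B fell. Its name marks it as mucin-related and says nothing of the tissue. Its signal was 1637 and 2431 with JH III against 7728 and 4442 in acetone. Both JH III pools were lower than both acetone pools, and all 4 arrays were above the control level. The group means were 6085 ± 2323 for acetone and 2034 ± 561 for JH III (SD, n = 2 each). The log2 difference was -1.52 ± 0.35 (SE, limma adjusted p = 0.0399), and among the probe sets tested its p had rank 16 by size. Ranked by size, the 4 arrays stood as they did for the GAPDH ratio, and 10.3% of tested probe sets with a mean signal over 500 followed that order. The part of array quality in this fall was not tested.

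The call on Mur18B depended on the arrays used and on the settings of the fit. With all arrays kept, the limma adjusted p was 0.299 with no filter and 0.711 without a variance trend. The difference stayed below 0 under the 16 alternatives tried, but several of them could not move it. Since its groups did not overlap, leaving out 1 array could not change the sign either. Without JH III replicate 1 the difference was -1.24 (limma adjusted p = 0.977), without JH III replicate 2 it was -1.79 (0.105), and without acetone replicate 1, that is within the shared chip lot, it was -1.12 (1). Without acetone replicate 2 it was -1.91 (limma adjusted p = 0.00428). With the replicate number as a block the adjusted p was 0.315, and across the 16 alternatives it passed in 2, with limma adjusted p from 4.49e-05 to 1. The lowest value is that of a block crossing the replicate numbers, chosen after seeing the data.

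**Figure D2:**
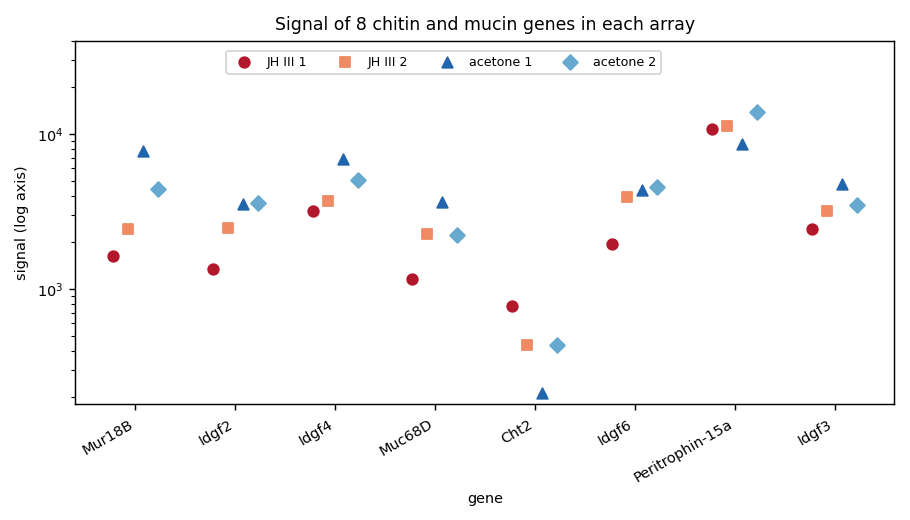
Signal (vertical log axis) of 8 members in each of the 4 arrays, with JH III in red and orange and acetone in blue. Mur18B, Idgf2, Idgf4, Idgf6 and Idgf3 have both JH III points under both acetone points, and the groups overlap for Muc68D, Cht2 and Peritrophin-15a.

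Among the other 12 mucins 0 passed. The 1 with an unadjusted limma p under 0.05 was Muc68D, at 1152 and 2276 with JH III and 3623 and 2221 in acetone. JH III replicate 1 was lowest and acetone replicate 1 highest, while the remaining arrays differed little. Its log2 difference was -0.78 ± 0.37 (SE, limma adjusted p = 0.664), and it was -0.31 without JH III replicate 1 and -0.43 without acetone replicate 1. Muc55B had 205 and 258 with JH III and 545 and 450 in acetone. The groups did not overlap, and in JH III replicate 1 it was under the control level (-0.88 ± 0.63 SE, limma adjusted p = 0.776). For Muc68Ca the signals were 51.5 and 149 with JH III against 237 and 227 in acetone, likewise apart, with 1 of the 4 arrays above the control level (-0.84, limma adjusted p = 0.847). The arrays of Muc55B and Muc68Ca also ranked as the GAPDH ratio did, and the share of probe sets of such low signal that did so was not counted.

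Of the mucins with a positive difference 0 had an unadjusted limma p under 0.05. Muc4B had 1555 and 2029 with JH III and 1182 and 1588 in acetone, overlapping groups with a difference of 0.36 and a 95% interval of -0.40 to 1.11. Muc11A was at 0.13 (interval -0.85 to 1.12). Muc26B was at 496 in JH III replicate 1 and at 19.9, 69.8 and 77.4 in the others, so that its 0.64 came from that array and was -0.61 without it. Muc12Ea (0.38) was under the control level in 1 array of each group, and Mur89F (0.44) and Muc91C (-0.20) on all 4 arrays. Muc18B, which RefSeq gives as the next protein-coding gene to Mur18B, was under that level on all 4 arrays and untested (42.4 and 68.2 with JH III, 107 and 121 in acetone). Mur2B and Mur82C were untested as well, and under the control level on all 4 arrays.

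Of the 6 imaginal disc growth factors 5 had lower mean levels with JH III, 4 of them without overlap between groups, and 0 passed over all genes. Over all tested probe sets 43.9% were below 0 and 15.3% were lower without overlap. Above a mean signal of 500, where 5 of the 6 lie, these shares were 55.9% and 22%. In family order the log2 differences were 0.14 for Idgf1, -0.94 for Idgf2, -0.53 for Idgf3, -0.77 for Idgf4, -0.37 for Idgf5 and -0.68 for Idgf6. All 6 passed the filter on low signal, and 5 exceeded the control level on all arrays. The family's median was -0.61, and it lay between -0.84 and -0.39 when any 1 array was left out, after quantile normalization, after median centring or with a pseudocount of 1. Centring each array on its median lowered every difference by 0.24 and put all 6 below 0, as did quantile normalization.

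Idgf2, a growth factor first known for its effect on cultured imaginal disc cells, was at 1348 and 2460 with JH III and 3527 and 3612 in acetone. The acetone pools were nearly equal and both JH III pools lay below them, the first by more. The difference was -0.94 ± 0.36 (SE, limma adjusted p = 0.53). Without JH III replicate 1 it was -0.52. Idgf4 had 3179 and 3682 with JH III and 6872 and 5083 in acetone, with no overlap (-0.77 ± 0.35 SE, limma adjusted p = 0.636). Leaving out JH III replicate 1 gave -0.67. Within the chip lot shared by 3 arrays the differences were -0.95 for Idgf2 and -0.56 for Idgf4. The arrays of Idgf4 and of Idgf3 ranked as the GAPDH ratio did, like those of Mur18B, and the part of array quality in them was not tested.

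Idgf6 had 1948 and 3903 with JH III and 4381 and 4559 in acetone (-0.68, 95% interval -1.39 to 0.03). Here JH III replicate 1 stood apart, and without it the difference was -0.19. Idgf3, which takes part in egg appendage formation and in closing wounds, had 2433 and 3168 against 4747 and 3461 (-0.53, interval -1.23 to 0.16). Its difference was -0.35 without JH III replicate 1, -0.31 without acetone replicate 1 and -0.20 after quantile normalization. For Idgf5 the signals were 569 and 345 with JH III and 691 and 521 in acetone, which overlap. Idgf1 was at 336 and 654 with JH III and 313 and 561 in acetone, overlapping too. RefSeq places Idgf1, Idgf2 and Idgf3 next to each other, and whether Idgf1 differed from its neighbours in response was not tested.

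Fat body and haemocytes are known sources of secreted Idgf proteins. The summed signal of the 4 fat body markers (Lsp2, Fbp1, Fbp2 and apolpp) was 7207 and 6582 with JH III and 4509 and 7121 in acetone. That of 6 haemocyte markers, of 7 listed, was 3091 and 2696 against 2781 and 3227. Both sums overlapped between the groups, but such a sum is led by its brightest markers. Most of the fat body sum was apolpp, with 6115 and 5566 with JH III and 4039 and 6018 in acetone. All 4 fat body markers had positive differences, with a median of 0.34, and 0 of the 3 tested had an unadjusted limma p under 0.05. The 6 haemocyte markers did not share a direction, with 3 below 0, 3 above and a median of 0.10, and 0 of the 5 tested had an unadjusted limma p under 0.05. Hml, a clotting protein that defines these cells, had 124 and 89.9 with JH III and 338 and 436 in acetone (-1.31, limma adjusted p = 0.757). Both JH III values of Hml were under their own control level, so that only a fall of at least 1.29-fold could be bounded. PPO1, a phenoloxidase of crystal cells, was higher without overlap, with 587 and 639 against 494 and 424 (0.36). PPO2 (0.83) and NimC1 (0.48) had positive differences as well, NimC1 under the control level on all arrays. The part of fat body and haemocytes in the Idgf values was not tested. In pools of whole flies, fewer cells of a type and less RNA per cell cannot be told apart.

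**Figure D3:**
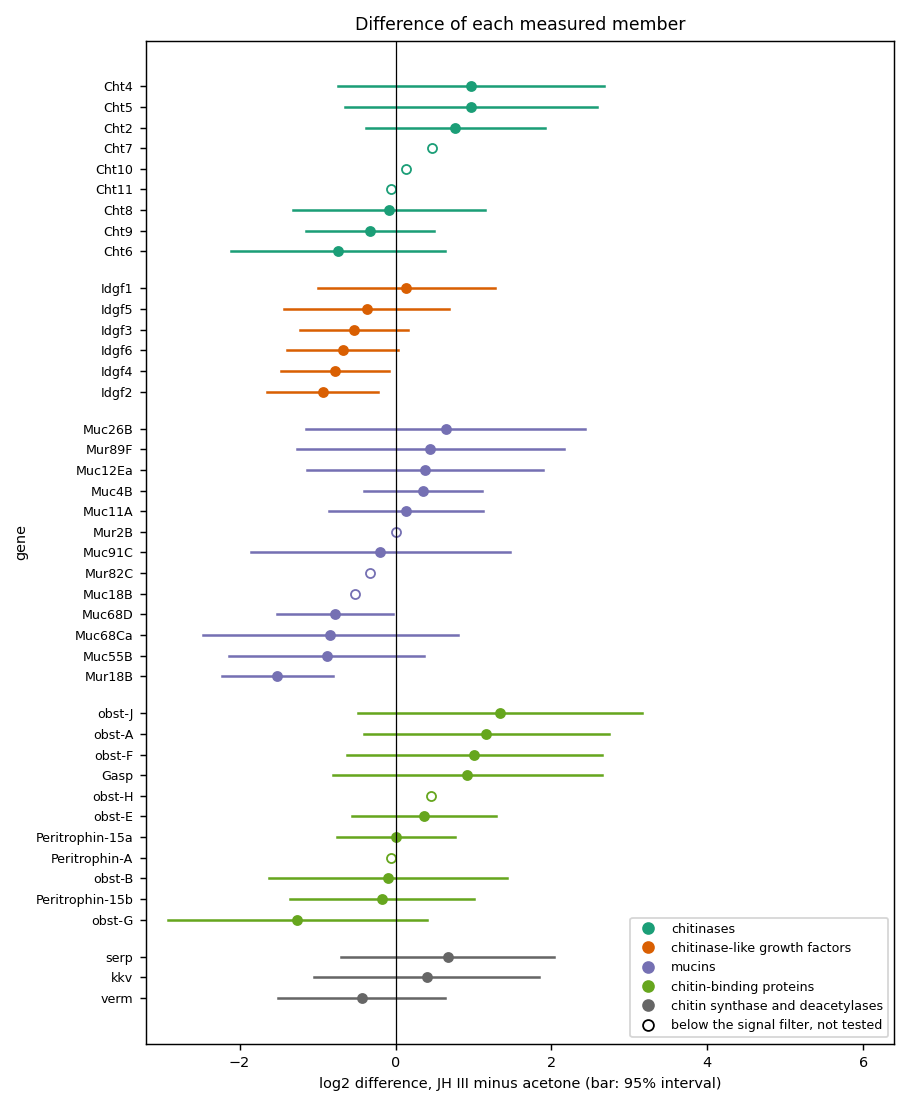
Log2 difference between JH III and acetone for all 42 members, by family, with the 95% interval of the limma fit as a bar. Intervals of Mur18B, Idgf2, Idgf4 and Muc68D lie below 0, and the 8 open points were below the signal filter and have no interval.

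Of the 9 chitinases 0 passed and 0 had an unadjusted limma p under 0.05. Cht2 and Cht9 exceeded the control level on all 4 arrays. Cht2 had 780 and 437 with JH III and 214 and 438 in acetone. JH III replicate 2 and acetone replicate 2 lay within 1 unit of signal of each other, JH III replicate 1 above them and acetone replicate 1 below. The difference was 0.77 (95% interval -0.38 to 1.92). It was 0.40 without JH III replicate 1 and 0.36 without acetone replicate 1, which came from a chip lot of its own. Cht9 had 899 and 1003 with JH III and 1161 and 1266 in acetone, which do not overlap. Its difference was small against the error (-0.33 ± 0.41 SE, limma adjusted p = 0.887).

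Cht5, which clears old cuticle at the moult in insects, had 220 and 298 with JH III and 85.8 and 96.4 in acetone. It was the 1 tested member with both JH III pools above both acetone pools, and in 3 of the 4 arrays it was under the control level (0.97 ± 0.81 SE, limma adjusted p = 0.825). Cht4, next to Cht9 in RefSeq, was at 0.97 and Cht8 at -0.08. Cht4 was at 393 in JH III replicate 1 and between 36.4 and 114 in the others. Cht6 was at -0.74, with 117 and 310 against 268 and 543. Cht7, Cht10 and Cht11 were under the signal filter and untested. The chitinases' median was 0.13, and it was -0.11 after median centring and -0.06 after quantile normalization.

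Peritrophins are chitin-binding proteins first isolated from insect peritrophic matrix. Peritrophin-15a was well above the control level on all arrays. Its signal was 10758 and 11267 with JH III and 8579 and 13910 in acetone, where the JH III pools lay between the acetone pools. The difference was 0.01 with a 95% interval of -0.75 to 0.77, so that a change of more than 1.7-fold either way lay outside the interval. Peritrophin-15b, its neighbour in RefSeq, had 1061 and 143 with JH III and 588 and 407 in acetone, the JH III pools on either side of acetone (-0.17). Peritrophin-A ranged from 57.8 to 75.1, under the control level throughout and untested.

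Obstructor proteins and Gasp are chitin-binding relatives of the peritrophins that arrange chitin in cuticle and trachea. Of these 8 measured members 7 were tested and 0 passed, and 0 had an unadjusted limma p under 0.05. The largest positive differences rested on JH III replicate 1. obst-J was at 602 in that array and between 14.9 and 56.4 in the other 3 (1.34). obst-A, which scaffolds larval cuticle, was at 887 there and between 66.7 and 160 in the others (1.16). obst-F was at 676 against 70.9 to 123 (1.01), and Gasp at 460 against 15.7 to 165 (0.92). Without that array the 4 differences were 0.12 for obst-J, -0.02 for obst-A, -0.07 for obst-F and 0.05 for Gasp. Over all 42 members 31% had their highest value in that array, and over all probe sets 37.1% had.

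The remaining obstructors did not share a direction. obst-E, which is known for shaping the pupal body, exceeded the control level on all arrays, with 1073 and 681 in JH III and 550 and 761 in acetone (0.36, 95% interval -0.56 to 1.29). obst-G had 165 and 9.4 with JH III and 213 and 361 in acetone. Both JH III values were lower than both acetone values but under their own control level, and no fold above 1 could be bounded (-1.26 ± 0.83 SE, limma adjusted p = 0.767). obst-B was at -0.09. obst-H was untested, with 73.8 and 90.0 against 36.7 and 38.2, all under the control level.

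The enzymes that make and modify chitin gave no call. kkv (krotzkopf verkehrt), the chitin synthase of cuticle and trachea, had 222 and 370 with JH III and 308 and 121 in acetone, overlapping groups (0.40 ± 0.72 SE, limma adjusted p = 0.925). The secreted deacetylases serp (serpentine) and verm (vermiform) limit the length of tracheal tubes and are neighbours in RefSeq. serp was at 820 and 172 with JH III and 197 and 242 in acetone, high in JH III replicate 1 alone (0.67, and -0.24 without that array). verm was at 307 and 559 with JH III and 516 and 683 in acetone (-0.44 ± 0.54 SE, limma adjusted p = 0.884).

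Other genes of chitin and mucin formation were read from 6 lists, and 0 of their members passed. In the hexosamine path to UDP-N-acetylglucosamine, the building block of chitin, 7 of 8 listed genes were measured and all 7 tested, with 0 at an unadjusted limma p under 0.05. Gfat2, the first committed enzyme of that path, had 1128 and 1146 with JH III and 712 and 814 in acetone. Its groups did not overlap (0.53, limma adjusted p = 0.814). In this list 2 genes were higher without overlap and 1 was lower, against 22.2% and 15.3% of all tested probe sets. The lower gene was Pgi, with 3173 and 4305 with JH III and 5106 and 5912 in acetone (-0.56). mmy, the last enzyme before chitin synthase, had 4414 and 2727 against 2935 and 3004 (0.22). Of the assembly genes 5 of 9 were measured and 2 tested. Chs2, the chitin synthase of the midgut, had 571 and 619 with JH III and 490 and 453 in acetone, higher in both JH III arrays by 0.29 ± 0.52 (SE, limma adjusted p = 0.925).

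drd (drop-dead), a membrane protein needed for a normal peritrophic matrix and the 1 measured gene of a list of 2, was the 1 gene of these lists with an unadjusted limma p under 0.05. It had 849 and 1089 with JH III and 522 and 226 in acetone. Both JH III pools were higher, and acetone replicate 2 was under its control level (1.27 ± 0.51 SE, limma adjusted p = 0.558). Of the other deacetylases and hexosaminidases 6 of 7 were measured and 4 tested. Of the apical matrix proteins 4 of 8 were measured and all 4 tested. Of the transferases that put O-linked sugars on mucins 11 of 14 were measured and 8 tested. Those 3 lists had 0 genes at an unadjusted limma p under 0.05. Of their tested genes, Hexo2 (-1.40) and dyl (-1.06) were lower without overlap, as were 15.3% of all tested probe sets. With JH III neither gene exceeded the control level. The falls could be bounded only at 1.07-fold or more for Hexo2 and 1.29-fold or more for dyl. Cda5 (1.23), Pgant3 (0.61) and Pgant4 (1.01) were higher without overlap, as were 22.2% of all tested probe sets. Cda5 was at 447 in JH III replicate 1 and between 18.3 and 67.9 in the others. It exceeded the control level in that array alone. The median difference of the transferases was 0.30 and that of the mucins -0.20, against 0.13 over all probe sets. The median over tested probe sets with a mean signal up to 500 was 0.26. Of the tested genes, 6 of 8 transferases and 6 of 10 mucins lay in that range. A difference between transferases and mucins was not tested.

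**Figure D4:**
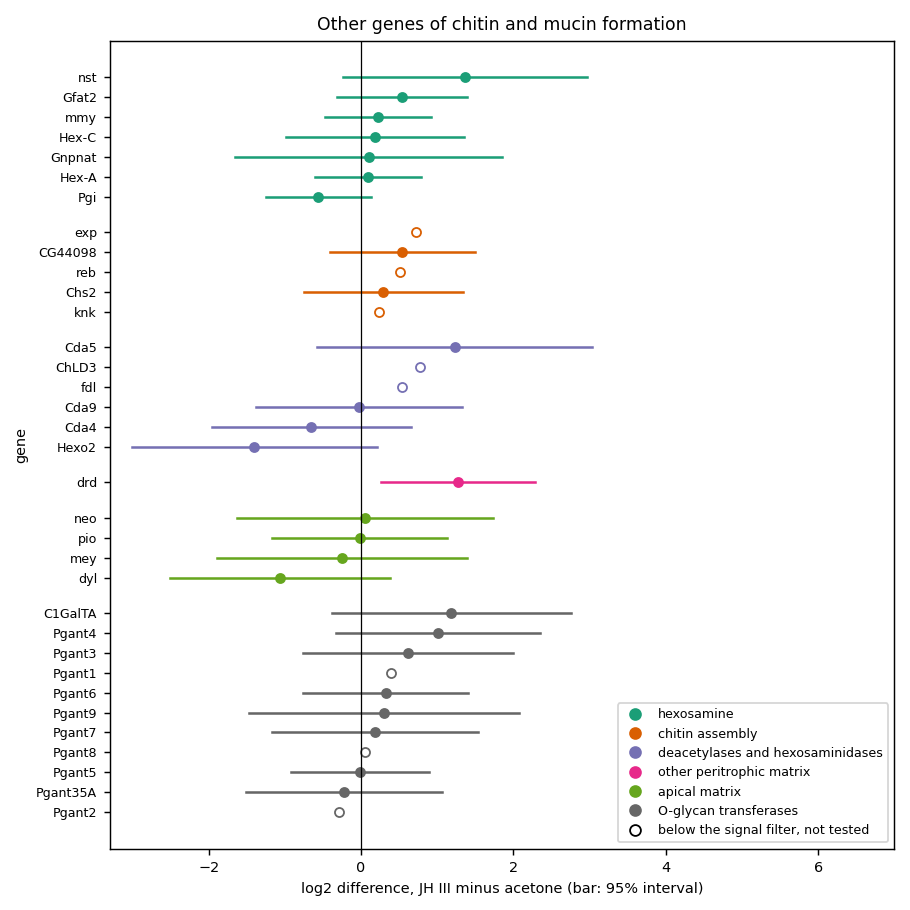
Log2 difference between JH III and acetone for 34 other genes of chitin and mucin formation, by list, with the 95% interval of the limma fit as a bar and open points for genes below the signal filter. The interval of drd alone lies clear of 0, on the higher side.

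Markers of the midgut, which makes the peritrophic matrix, had their lowest and highest sums in the same arrays as Mur18B and Muc68D. Of 14 listed markers 12 were measured, and none was under the control level on any array. Their summed signal was 107804 and 172678 with JH III and 227117 and 171138 in acetone. The JH III and acetone values overlapped, with JH III replicate 1 lowest and acetone replicate 1 highest, as for Muc68D. Mal-A1 (-1.46) and alphaTry (-0.96) had an unadjusted limma p under 0.05, while mex1 (0.70) and cad (0.16) had positive differences. Their part in the mucin values was not tested. Peritrophin-15a had its lowest value in acetone replicate 1, where that sum was highest. The pattern was not particular to the midgut, since summed muscle markers, given below, had the same lowest and highest arrays.

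**Figure D5:**
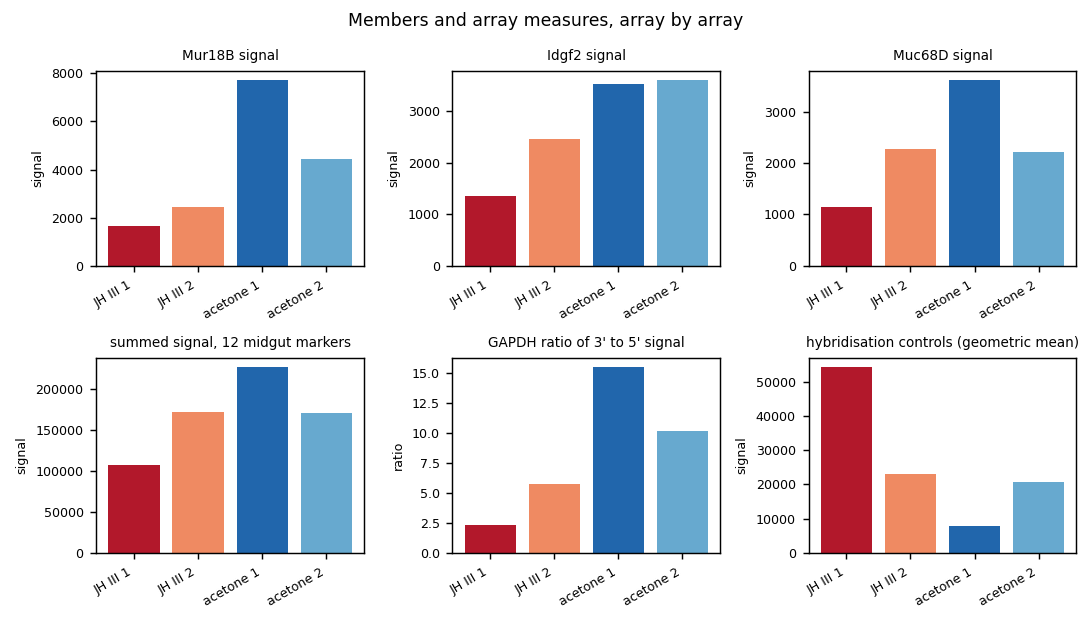
Signal of Mur18B, Idgf2 and Muc68D, the summed signal of 12 midgut markers, the GAPDH 3' to 5' ratio and the geometric mean of 9 hybridisation controls, each as a bar per array from 0. JH III replicate 1 is lowest in the first 5 panels and highest in the last, at 54170.

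Ovary and male markers were read as a check of the label of whole females. Ovary markers summed to 30067 and 42859 with JH III and 26733 and 35701 in acetone, which overlap. Of 9 listed 7 were measured, and all 7 had positive differences, with a median of 0.27 against 0.13 over all probe sets. Among the 6 tested, Vm32E alone had an unadjusted limma p under 0.05 (0.77, limma adjusted p = 0.669), with overlapping groups. Of 13 male tissue markers 7 were under the control level on all 4 arrays, and 6 exceeded it on some. Mst84Da exceeded it on 3 arrays (625 and 520 with JH III, 430 and 118 in acetone). Mst87F did so on 3 as well (585 and 94.5 with JH III, 318 and 626 in acetone). The male markers therefore did not settle the label. Muscle markers (4 of 6 measured) summed to 10016 and 16709 against 27043 and 13522. Like the midgut sum, theirs was lowest in JH III replicate 1 and highest in acetone replicate 1. All 4 had a difference below 0, with a median of -0.79, against -0.53 for the 12 midgut markers.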

How the data were processed

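Whole-body RNA of 4 pools was measured on Affymetrix DrosGenome1 arrays, with groups and replicate numbers taken from the sample titles. The authors deposited 1 linear intensity (signal) per probe set and array, already scaled. Their 2% trimmed means were 500.1 in every array, and how probe pairs were summarised is not stated in the labels. The labels' protocols give a Trizol and chloroform extraction and a biotin label. The values were kept as scaled and tested as log2(signal + 83), where 83 is the 25th percentile of all values. Of 14010 probe sets, 44 controls and the lowest 25% by mean signal were left out, leaving 10475 for limma 3.58.1 in R 4.3.3 (lmFit, eBayes with a trend, two-sided, threshold 0.05). The fit had 2 residual degrees of freedom and 66.9 after moderation, so that most of the spread was borrowed from other probe sets. No genome build is named for the arrays and no coordinates are given. Signals of different probe sets are not comparable with each other.

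Fully described members were those past the threshold, those with an unadjusted p under 0.05, the 6 with the largest difference among those above the control level on all arrays, and the 6 of highest signal. These gave 8 genes, and other members were added for account by family. The members, gene lists and tests were chosen with earlier results of these data known. Alternatives were the pseudocount, normalization, filter, variance trend, the methods' t-test, replicate and chip lot blocks, the mean of all probe sets, and each array left out. The deviations of same-numbered arrays were nearly unrelated (correlation -0.11 across probe sets). With 2 pairs the numbers were not taken as pairing the samples. Tables were read with pandas 2.3.3 in Python 3.11.15, and plots drawn with matplotlib 3.10.9.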

Additional observations from a re-analysis of the deposited data

How the results depend on the processing

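The number of members called was 1 with all arrays, and 0 with a pseudocount of 1 or of the median (256), after quantile normalization or median centring, with no filter or the lowest 50% left out, without a variance trend, by the methods' t-test, with the replicate block, with the chip lot block and with the mean of all probe sets. The count was 0 to 1 when 1 array was left out, where the lone array of a group is assumed to vary like the others, and 1 with the crossed replicate block, which was chosen after seeing the data. Members with an unadjusted p under 0.05 were 4 with all arrays, 2 after quantile normalization, by the methods' t-test, with the replicate block and with the chip lot block, 1 without a trend, and 2 to 11 when 1 array was left out, the 11 without JH III replicate 2. Over all probe sets tested, the 17 calls became 13 and 10 with the other pseudocounts, 2 after either normalization, with another filter, with the replicate block or with the mean of all probe sets, 4 with the chip lot block, 0 without a trend or by the methods' t-test, 109 with the crossed block, and 3 to 36 with 1 array left out. The members' median stayed between -0.26 and 0.08. Peritrophin-15a changed sign to -0.23 after median centring and -0.34 with the chip lot block, and ran from -0.34 to 0.36 with 1 array left out. Mur18B, Idgf2, Idgf3, Idgf4, Idgf6 and Muc68D were below 0 and Cht2 above 0 in all 16 alternatives. Several of these change only the error or the probe sets tested and left the difference itself as it was. For genes whose groups did not overlap, leaving out 1 array could not change the sign either. The chip lot block gave the same differences as leaving out acetone replicate 1. Signal over background limits the 20 members that were above the control level on some arrays and the 9 that were above it on none.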

Other observations

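Different probe sets of the same gene did not always give the same picture. For Cht6 the brightest had a difference of -0.74 and another tested one 0.57. For obst-A the brightest was at 1.16 and the other, untested, at -0.49. Of the 3 probe sets of Muc4B the brightest, with a mean signal of 1589, is of a type that Affymetrix marks as built with some of its probe selection rules dropped, and the other 2 had mean signals of 43.2 and 70.0, under the control level on all arrays. For obst-E the tested pair gave 0.36 and -0.02, and for serp the second probe set, with a mean signal of 60.9, gave 0.00.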
